A study of Mus musculus with 9 samples.

Results

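Scavenger receptors are described here by the transcripts of 10 genes in cultured mouse primary macrophages. The genes were given as a list of symbols (Cd36, Msr1, Marco, Scarb1, Olr1, Lrp1, Cd5l, Cxcl16, Ager and Megf10), each matched to 1 Ensembl identifier among the 34866 in the deposited tables. Messenger RNA was sequenced in 9 libraries, 3 in each of 3 groups. The standard oxygen group was cultured for 7 days in standard oxygen, for which no percentage is given. The acute hypoxia group was taken from standard oxygen into 3 hours of 1% oxygen, while the cells of the chronic hypoxia group spent 7 days in 1% oxygen. In every group the alpha-MEM culture medium held serum and L929-conditioned medium, the latter being a source of the macrophage growth factor M-CSF from a mouse fibroblast line. The labels name no genotype, strain, tissue of origin or donor animal, and do not say that replicates are separate cultures, so the p-values measure the spread between these libraries only.

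Scavenger receptors are mostly cell-surface proteins, unrelated in structure, that share an ability to bind modified lipoproteins and other polyanionic or altered-self ligands. In macrophages they take up oxidised low-density lipoprotein, bind bacteria and particles, and help clear dying cells. Uptake through them is not shut off by cell cholesterol in the way that uptake through the low-density lipoprotein receptor is, so macrophages that use them can fill with lipid and become foam cells. Class A (Msr1 and Marco) comprises trimeric collagen-like receptors, and class B (Cd36 and Scarb1) comprises proteins anchored at both ends in the membrane. The other members are the lectin-like receptor Olr1, the large endocytic receptor Lrp1, the secreted cysteine-rich protein Cd5l, the membrane-bound chemokine Cxcl16, the receptor for advanced glycation end products Ager and the engulfment receptor Megf10.

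The sequences before the annotated starts of Marco, Cd5l, Cd36, Olr1 and Lrp1 are shown because these are the members with an entry whose levels differed between groups without overlap or within every code. Of the 10 members, 6 had an entry in the RefSeq promoter table (GRCm38.p6). Each line gives the 250 bases before the start, 5′ to 3′ on the strand of the gene. Capitals mark matches on either strand to ACGTG or GCGTG (cores of the hypoxia response element), AGGTCA (a half-site of PPAR receptors), GAGGAA (a PU.1 box), TGAGTCA (an AP-1 site) or CCAAT.
Marco (chr1:120505025-120505274, minus strand): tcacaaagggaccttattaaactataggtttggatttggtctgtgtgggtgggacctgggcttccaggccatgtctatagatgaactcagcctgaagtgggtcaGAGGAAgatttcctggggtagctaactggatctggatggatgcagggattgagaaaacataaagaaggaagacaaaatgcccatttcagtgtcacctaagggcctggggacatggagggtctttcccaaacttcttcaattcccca
Cd5l (chr3:87357631-87357880, plus strand): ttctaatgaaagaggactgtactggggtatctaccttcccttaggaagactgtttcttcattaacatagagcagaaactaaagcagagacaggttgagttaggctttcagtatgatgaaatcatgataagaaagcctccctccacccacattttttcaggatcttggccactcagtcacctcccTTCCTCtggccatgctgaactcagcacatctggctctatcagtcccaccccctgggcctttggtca
Cd36 (chr5:17835897-17836146, minus strand): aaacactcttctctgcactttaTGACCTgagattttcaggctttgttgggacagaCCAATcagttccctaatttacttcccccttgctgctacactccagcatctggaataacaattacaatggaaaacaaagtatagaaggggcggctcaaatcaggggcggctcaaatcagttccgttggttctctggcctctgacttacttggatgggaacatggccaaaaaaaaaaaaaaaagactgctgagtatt
Olr1 (chr6:129507166-129507415, minus strand): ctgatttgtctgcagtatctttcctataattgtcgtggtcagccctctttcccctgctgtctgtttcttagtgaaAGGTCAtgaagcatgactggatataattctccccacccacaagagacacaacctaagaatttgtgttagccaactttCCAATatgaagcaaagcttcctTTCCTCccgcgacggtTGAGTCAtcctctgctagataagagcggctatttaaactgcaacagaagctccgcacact
Lrp1 (chr10:127621149-127621398, minus strand): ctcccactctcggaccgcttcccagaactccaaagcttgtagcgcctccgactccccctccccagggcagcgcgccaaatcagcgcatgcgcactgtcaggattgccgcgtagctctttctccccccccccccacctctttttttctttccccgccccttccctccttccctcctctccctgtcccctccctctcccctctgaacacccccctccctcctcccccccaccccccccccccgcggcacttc
Neither hypoxia core was found in these 5 windows, whereas 38.6% of 32851 RefSeq promoter windows of 250 bases held at least 1 of them. GAGGAA was found in Marco, Cd5l and Olr1 (23.3% of all windows), AGGTCA in Cd36 and Olr1 (14% of all windows) and TGAGTCA in Olr1 (4.46% of all windows). CCAAT was found in Cd36 and Olr1 (33.8% of all windows), and the Lrp1 window held none of the 6 motifs and had a GC content of 67.2%. These are matches of letters in 1 window per gene and no binding was measured. The Cd36 window lies between alternative starts inside the annotated gene, 179 bases from the nearest GENCODE M21 start, while the other 4 windows end at a GENCODE start.

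All 10 members are protein-coding genes in GENCODE M21. No stretch of 75 bases, the read length, in the longest transcript of 9 of them recurs in another listed gene. Cxcl16 (chr11:70453983-70459984, minus strand) is the exception. Of its exonic bases, 18.3% overlap exons of Zmynd15 on the opposite strand, and whether the counting used strand is not given in the sources used here, so reads there cannot be assigned with certainty. Zmynd15 itself was listed at 0.0344 to 0.698 TPM.

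Expression is given in TPM, a measure of transcript abundance that corrects for gene length and scales every library to the same total. Depth cannot be read from TPM and is unknown. Marco and Cd36 were the most abundant members. In standard oxygen Marco had 3529 ± 1183 TPM (mean ± SD, n = 3) and Cd36 3337 ± 1466 TPM, ranks 26 and 27 among all genes, and their values overlapped. Msr1 followed at 448 ± 42.0 TPM, Lrp1 at 262 ± 40.2 TPM and Scarb1 at 33.4 ± 0.634 TPM, each apart from the next. Cxcl16 (12.3 ± 10.6 TPM) and Cd5l (2.48 ± 1.35 TPM) overlapped, and Olr1 (0.742 ± 0.122 TPM), Ager (0.273 ± 0.0992 TPM) and Megf10 (0.144 ± 0.243 TPM) were under 1 TPM. In acute hypoxia the order was Cd36 (3541 ± 1463 TPM), Marco (3296 ± 1119 TPM), Msr1 (447 ± 80.0 TPM), Lrp1 (350 ± 18.7 TPM) and Scarb1 (32.7 ± 2.79 TPM), with Cd36 overlapping Marco and Msr1 overlapping Lrp1. In chronic hypoxia Cd36 had 2118 ± 926 TPM and Marco 1464 ± 592 TPM, with overlapping values, and those of Msr1 (492 ± 34.0 TPM) and Lrp1 (455 ± 41.7 TPM) also overlapped. Scarb1 (21.3 ± 2.53 TPM) overlapped Cxcl16 (17.2 ± 14.6 TPM) there. The 10 members together held 0.762% of all TPM in the standard group, 0.769% in the acute and 0.457% in the chronic group. Cd36 and Marco made up 83.7% to 91.8% of that sum in the standard oxygen libraries and 67.3% to 81.8% in the chronic hypoxia libraries.

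The libraries carried macrophage transcripts throughout. All 10 macrophage markers had a mean of at least 1 TPM in each group, and their sum ranged from 56890 to 75090 TPM. Markers of T and NK cells, B cells, fibroblasts, mast cells, dendritic cells and erythroid cells summed to at most 1.71 TPM per list in any library. The 5 endothelial markers summed to 24.9 to 47.8 TPM in the standard group, 24.3 to 61.4 TPM in the acute group and 54.0 to 58.3 TPM in the chronic group, through Pecam1 and Vwf. Pecam1, which leukocytes also express, had 15.0 ± 6.02, 18.4 ± 5.61 and 40.8 ± 1.75 TPM (mean ± SD, n = 3) in the same order, while Cdh5, Kdr and Tek were at 0 to 0.815 TPM. The chronic sums lay above the standard ones, and their part in the results was not tested. Of the peritoneal and alveolar macrophage markers, Icam2 alone reached 1 TPM and Timd4 was listed at 0. The 8 neutrophil markers summed to 898 to 1595 TPM in the standard group, 940 to 1910 TPM in the acute group and 260 to 584 TPM in chronic hypoxia. S100a8 carried nearly all of it (258 to 1906 TPM). Ly6g, Mpo, Elane and S100a9 did not exceed 0.765 TPM. Ltf had 1.485 TPM in 1 acute library and did not exceed 0.2144 TPM in any other library. Between standard oxygen and chronic hypoxia mean Ngp fell from 2.56 to 0.110 TPM and mean Camp rose from 0.832 to 1.82 TPM. Like Marco, the neutrophil sum was lower in every chronic library than in any library of both other groups. From standard oxygen to acute hypoxia mean S100a8 rose (1133 to 1289 TPM) and mean Marco fell (3529 to 3296 TPM), with overlapping groups for each. The part of the neutrophil sum in the result was not tested. In bulk samples such as these, fewer cells of a type and less RNA per cell cannot be told apart.

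Libraries were paired by 4 digits that their descriptions share across groups and whose meaning is not stated, here called codes X, Y and Z, with 1 library of each code in each group. The 3 libraries of code Z stood apart from the other 6. Cxcl16 was at 0.097, 0.169 and 0.336 TPM in the code Z libraries of standard oxygen, acute and chronic hypoxia, and at 18.0 to 25.7 TPM in the other 6. Cd36 in code Z was 0.393, 0.422 and 0.399 of the mean of X and Y in the 3 groups, and Marco was 0.518, 0.522 and 0.436 of it. Msr1 (0.719 to 0.904), Scarb1 (1.02 to 1.22) and Lrp1 (0.862 to 1.25) differed less by this ratio. Cd5l was 2.33 and 2.28 times as high in code Z as in the others in standard oxygen and acute hypoxia, and 0.484 of their mean in chronic hypoxia. Olr1 was at 1.17, 0.755 and 3.51 times the mean of the others in the 3 groups. The macrophage marker Mertk (2.21 to 3.37 TPM in code Z, 21.8 to 33.3 TPM in the others) was also low in code Z. S100a8 went the other way, at 1.76, 1.95 and 2.19 times the mean of the others in the 3 groups. Every group holds 1 such library, which widens the spread within groups. Results below are given without a block (unblocked) and with the code as a block (blocked), and those of the members also without the code Z libraries where that changes a call of the unblocked fit. Fits without code Z hold only the code X and Y libraries of each group. Code Z was set apart by values of these same members, so those fits are not independent of them.

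**Figure D1:**
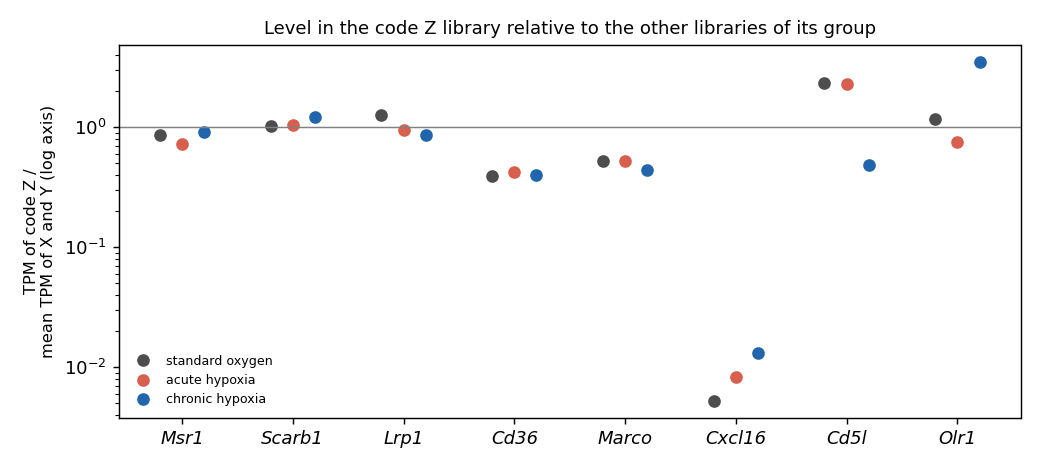
Ratio of the TPM in the code Z library to the mean TPM of the code X and Y libraries of the same group, on a log axis, for 8 members, with 1 point per group. Cd36 and Marco lie at 0.393 to 0.522, Cxcl16 at 0.00526 to 0.0131, and Msr1, Scarb1 and Lrp1 at 0.719 to 1.25.

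Chronic hypoxia was compared with standard oxygen to ask which members differ after 7 days in 1% oxygen. Scarb1 was lower and Lrp1 higher unblocked. With the code as a block, Marco, Cd36, Scarb1 and Cd5l fell and Lrp1 rose. Msr1, the other class A receptor, and Cxcl16 did not pass in either fit. Each gene was fitted with limma on log2(TPM + 1) together with all genes of a mean of at least 1 TPM over the 6 libraries, and a Benjamini-Hochberg adjusted p under 0.05 counted as changed. Of the 7 members tested, 1 was higher and 1 lower unblocked, where 2.69% of 11067 genes were called. With the code block 1 was higher and 4 lower, Cd5l among them, where 18.4% of all genes were called, 15.1% of genes tested being higher and 3.3% lower. Cd5l passed the filter through the standard oxygen group alone, so its call is not independent of the filter. Of the 6 members whose mean reached 1 TPM in both groups, 1 was higher and 3 were lower with the block, and their median log2 fold change was -0.24, against 0.16 over all genes. Median-of-ratios rescaling brought the all-gene median to -0.002, and with it the code block called 0 of these 6 higher and 3 lower. The split of all calls with the block went from 1674 higher and 365 lower to 613 higher and 657 lower under that rescaling.

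Marco (ENSMUSG00000026390), which binds bacteria and inhaled or circulating particles, had 4035, 4374 and 2177 TPM in the standard oxygen libraries of codes X, Y and Z. The corresponding values were 3634, 4207 and 2047 TPM in the acute group and 1725, 1881 and 786 TPM in the chronic group. All 3 chronic libraries lay below all libraries of both other groups, and standard oxygen and acute hypoxia overlapped. The chronic mean was 0.415 of the standard oxygen mean. The log2 fold change was -1.30 ± 0.410 (SE), at a limma adjusted p of 0.133 unblocked. With the code block the SE was 0.0876 and the limma adjusted p 0.00689. Within codes X, Y and Z the chronic library differed by -1.23, -1.22 and -1.47 on the log2(TPM + 1) scale. Without the code Z libraries the log2 fold change was -1.22, with a limma adjusted p of 0.00228 and no block. In that fit 2300 of 10924 genes were called. In acute hypoxia the log2 fold change against standard oxygen was -0.10, with a limma adjusted p of 1 unblocked and 0.423 blocked, and a blocked 95% interval of -0.22 to 0.02.

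Msr1 (ENSMUSG00000025044), the macrophage receptor that binds acetylated and oxidised lipoprotein, had 452, 488 and 404 TPM in the standard group in the order X, Y and Z. It had 494, 493 and 355 TPM in the acute group and 490, 528 and 460 TPM in the chronic group. Msr1 overlapped between all 3 groups, although its chronic library exceeded the standard oxygen library in each of the 3 codes. Its log2 fold change in chronic hypoxia against standard oxygen was 0.14, with a limma adjusted p of 0.507 unblocked and 0.175 blocked. The 95% interval with the block was -0.02 to 0.30. After rescaling the value was -0.04, so its sign depended on the scaling. The difference between Marco and Msr1 in their response was not tested.

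**Figure D2:**
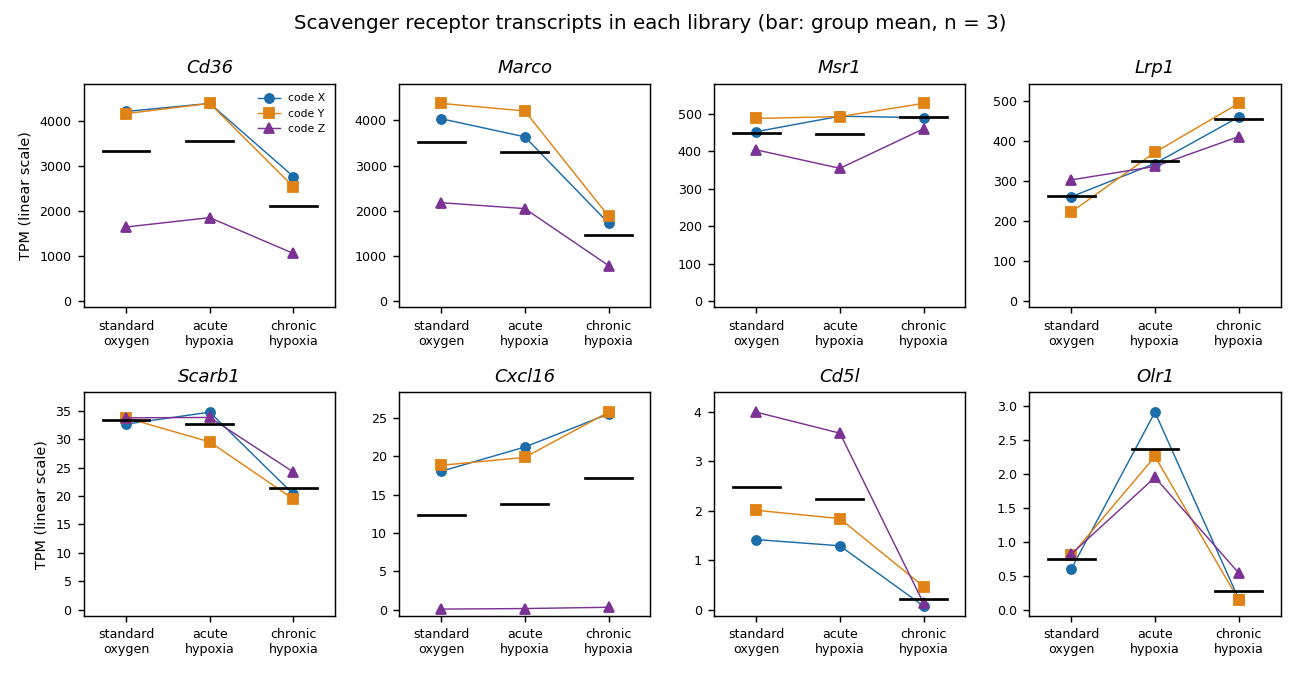
TPM on a linear scale in each of the 9 libraries for 8 members, by group, with points joined within a code and bars at the group means (n = 3). Marco, Scarb1, Cd5l and Olr1 are lower and Lrp1 higher in all 3 chronic libraries than in all 3 standard oxygen libraries, and Cxcl16 lies at 0.097 to 0.336 TPM in code Z.

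Cd36 (ENSMUSG00000002944), the class B receptor for oxidised lipoprotein and long-chain fatty acids, had 4207, 4160 and 1644 TPM in the standard group in the order X, Y and Z. In acute hypoxia it had 4386, 4386 and 1852 TPM, and in chronic hypoxia 2762, 2534 and 1057 TPM. The groups overlapped with the code Z library low in each, while every chronic library was below the standard oxygen library of its own code. Those within-code differences were -0.61, -0.71 and -0.64 on the log2(TPM + 1) scale. The SE of the log2 fold change of -0.65 was 0.502 unblocked and 0.0739 blocked. Cd36 thus fell with the code block (limma adjusted p of 0.0131) and did not pass without it (0.479). Without the code Z libraries the log2 fold change was -0.66, with a limma adjusted p of 0.00708 and no block.

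Scarb1 (ENSMUSG00000037936), the class B receptor for high-density lipoprotein that exchanges cholesterol with it, was even across codes. It had 32.6, 33.7 and 33.7 TPM in the standard group, 34.7, 29.5 and 33.8 TPM in the acute group, and 20.3, 19.5 and 24.2 TPM in the chronic group, in the order X, Y and Z. The chronic libraries lay below all others, and the chronic mean was 0.639 of the standard oxygen mean. Scarb1 fell by 0.63 on the log2 scale (SE 0.114), with a limma adjusted p of 0.046 unblocked and 0.0189 blocked. It remained lower after rescaling, where the log2 fold change was -0.80 and the limma adjusted p 0.0211 unblocked. Leaving out any 1 library other than the code Z library of chronic hypoxia ended the call unblocked, with log2 fold changes of -0.72 to -0.57 over all 6 such fits.

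Lrp1 (ENSMUSG00000040249), an endocytic receptor for apolipoprotein remnants, protease complexes and calreticulin on dying cells, was highest in chronic hypoxia. It had 261, 222 and 303 TPM in the standard group, 344, 372 and 336 TPM in the acute group and 459, 494 and 411 TPM in the chronic group, in the order X, Y and Z. The 3 groups did not overlap, and the chronic mean was 1.74 times that of standard oxygen. Lrp1 rose by 0.80 on the log2 scale in chronic hypoxia (SE 0.143), with a limma adjusted p of 0.0444 unblocked and 0.0276 blocked. The call ended after rescaling, where the log2 fold change was 0.62 and the limma adjusted p 0.0961 unblocked and 0.0569 blocked. Within codes X, Y and Z the differences were 0.82, 1.15 and 0.44. Leaving out the standard oxygen library of code X or Y, or the chronic library of code X or Y, also ended the call unblocked, with limma adjusted p-values of 0.147 to 0.187. In acute hypoxia the log2 fold change of 0.43 did not pass (limma adjusted p of 0.487 unblocked and 0.242 blocked), although the acute library was higher in each of the 3 codes.

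Cd5l (ENSMUSG00000015854), a secreted protein of macrophages that binds lipids and bacteria, was low in every group. It had 1.42, 2.01 and 3.99 TPM in the standard group, 1.29, 1.84 and 3.57 TPM in the acute group, and 0.0754, 0.471 and 0.132 TPM in the chronic group, in the order X, Y and Z. The chronic libraries lay below all others. The log2 fold change against standard oxygen was -1.45 ± 0.335 (SE), at a limma adjusted p of 0.0778 unblocked and 0.0364 blocked. Without the code Z libraries its mean fell under 1 TPM and it was not tested.

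Acute hypoxia was compared with standard oxygen to ask which members respond within 3 hours of 1% oxygen. None of the 8 members tested passed, with or without the code block. Olr1 and Lrp1 had the largest differences, and Cd36, Marco, Msr1 and Scarb1 differed by at most 0.10 on the log2 scale. In limma 0.0273% of 10987 genes were called unblocked and 0.71% blocked. In each fit 2 members, Olr1 and Lrp1, had an unadjusted p under 0.05, against 785 of all genes unblocked and 1555 blocked. Olr1 reached the filter through the acute group alone, where it was high, so its p is not independent of the filter. The median log2 fold change of the other 7 members tested was -0.02, against 0.01 over all genes. With the code block the 95% intervals were -0.02 to 0.23 for Cd36, -0.21 to 0.18 for Msr1 and -0.25 to 0.19 for Scarb1.

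Olr1 (ENSMUSG00000030162), the lectin-like receptor for oxidised lipoprotein best known from endothelium, was the member with the highest acute values relative to its other groups. It had 0.601, 0.802 and 0.822 TPM in the standard group, 2.91, 2.26 and 1.95 TPM in the acute group, and 0.162, 0.147 and 0.542 TPM in the chronic group, in the order X, Y and Z. The 3 groups did not overlap. The log2 fold change in acute hypoxia was 0.95 ± 0.208 (SE) on the log2(TPM + 1) scale, with a limma adjusted p of 0.255 unblocked and 0.153 blocked. At these low levels the pseudocount compresses the change, since the ratio of the means was 3.20. Against standard oxygen in chronic hypoxia Olr1 was under the filter. Fitted with no filter it differed by -0.45 ± 0.140 (log2, SE), at a limma adjusted p of 0.229.

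**Figure D3:**
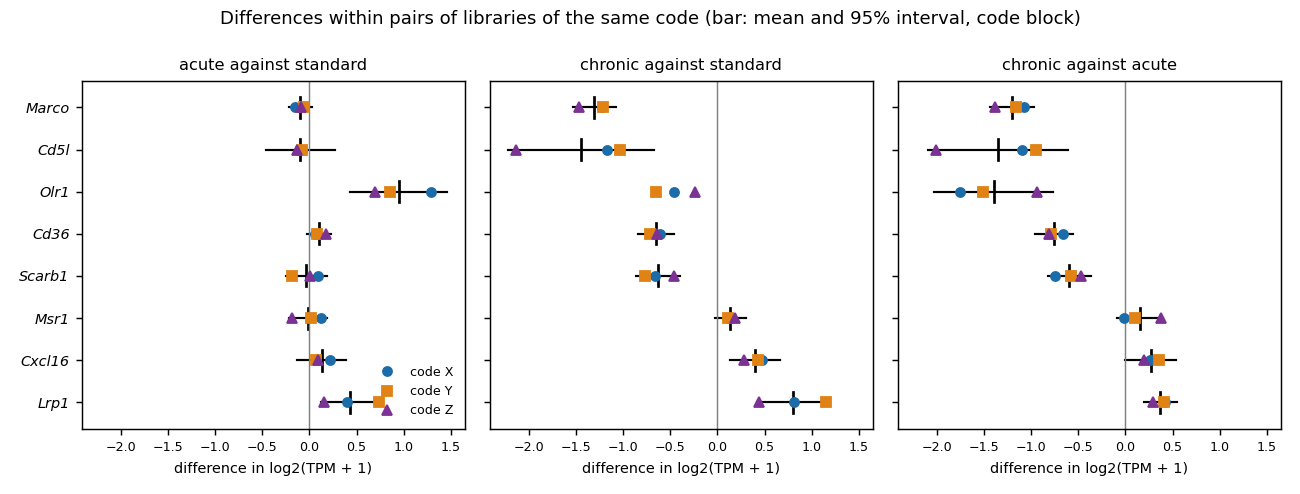
Difference in log2(TPM + 1) between libraries of the same code for 8 members in the 3 comparisons, with the mean and 95% interval of the limma fit with the code block (no interval for Olr1 in chronic against standard, which was not tested). Marco, Cd36, Scarb1, Cd5l and Olr1 lie below 0 and Lrp1 and Cxcl16 above 0 in all 3 codes in chronic against standard and in chronic against acute. Msr1 lies above 0 in all 3 codes in chronic against standard only.

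Chronic and acute hypoxia were compared to ask which members differ between 7 days and 3 hours of 1% oxygen. The chronic cells spent their culture in 1% oxygen, whereas the acute cells came from standard oxygen. Length of exposure therefore cannot be told apart from the oxygen level during culture. With the code block Marco, Cd36 and Scarb1 fell and Lrp1 rose from acute to chronic hypoxia, and unblocked none of the 8 members tested passed. Olr1 and Cd5l were also called lower with the block, but they reached the filter through the acute group alone, where they were high, so their calls are not independent of it. In limma 0.695% of 11087 genes were called unblocked. An unadjusted p under 0.05 was reached unblocked by 5 members and by 2305 of the 11087 genes. Blocked by code, 15.5% of genes were called, 12.1% higher and 3.42% lower. Of the 6 members whose mean reached 1 TPM in both groups, 1 was higher and 3 were lower, and their median log2 fold change was -0.22, against 0.14 over all genes. After rescaling, the all-gene median was near 0 and the split of all calls with the block went from 1345 higher and 379 lower to 524 higher and 559 lower. In that setting 0 of these 6 members were higher and 3 lower. This comparison shares its chronic libraries with the comparison of chronic hypoxia and standard oxygen, so the values stand side by side and are not independent.

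With the code block Olr1 differed by -1.40 ± 0.252 (log2, SE; limma adjusted p of 0.0273) and Cd5l by -1.35 ± 0.293 (0.0403). Marco changed by -1.20 ± 0.0917 (log2, SE; limma adjusted p of 0.00748). Cd36 changed by -0.76 ± 0.0798 (log2, SE; limma adjusted p of 0.0122) and Scarb1 by -0.60 ± 0.0910 (0.0189). Lrp1 changed by 0.37 ± 0.0682 (log2, SE; limma adjusted p of 0.0284), which became 0.21 with a limma adjusted p of 0.113 after rescaling. Without a block the limma adjusted p-values were 0.0634 for Olr1, 0.0799 for Scarb1, 0.103 for Cd5l, 0.139 for Lrp1, 0.178 for Marco and 0.42 for Cd36. Leaving out the code Z libraries, with no block, brought them to 0.00593 for Marco, 0.00864 for Cd36, 0.0138 for Olr1, 0.0212 for Scarb1 and 0.0302 for Lrp1, and Cd5l was not tested. In that fit 1788 of 10952 genes were called. Msr1, with a log2 fold change of 0.15, did not pass in either fit, and neither did Cxcl16 (0.27).

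Cxcl16 (ENSMUSG00000018920), a chemokine that on the cell surface also binds oxidised lipoprotein, had 18.0 and 18.8 TPM in the code X and Y libraries of standard oxygen. In the same order it had 21.2 and 19.9 TPM in the acute group and 25.5 and 25.7 TPM in the chronic group. Code Z had under 1 TPM in each group, so the groups overlapped. Within codes X, Y and Z chronic hypoxia exceeded standard oxygen by 0.48, 0.43 and 0.28 on the log2 scale. The limma adjusted p was 0.906 unblocked and 0.0572 blocked. Without the code Z libraries it was higher by 0.46 (limma adjusted p of 0.0243, no block). Its overlap with Zmynd15 leaves part of its value uncertain.

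Ager (ENSMUSG00000015452), the receptor for advanced glycation end products that is best known from lung epithelium, ranged from 0.160 to 0.619 TPM over the 9 libraries. Megf10 (ENSMUSG00000024593), an engulfment receptor best known from glia and muscle precursors, ranged from 0.316 to 0.581 TPM in code Z and did not exceed 0.029 TPM in the other 6 libraries, where it was listed at 0 in 3. Neither reached the filter in any comparison. Fitted with no filter, their log2 fold changes lay between -0.11 and 0.16, with limma adjusted p-values of 0.639 to 0.99.

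The patterns of single genes across the 9 libraries were set beside those of the 6 members with a mean of at least 10 TPM, as a description over libraries that share code and group. By Pearson's r of log2(TPM + 1) among 7107 genes, Cd36 was most like Igf1 (0.997), Syn1 (0.988) and Slc41a3 (0.974). Marco was most like Phlda3 (0.983), Panx1 (0.983) and Cat (0.981), and Scarb1 was most like the mitochondrial genes mt-Co1 (0.979), mt-Co2 (0.977) and mt-Atp6 (0.973). Lrp1 was most like Atp8b4 (0.967), Txnip (0.965) and Ltbr (0.96). For Msr1 the most alike were Dock4 (0.972), Tax1bp3 (0.971) and Cttnbp2nl (0.953). For Cxcl16, whose values split by code Z, they were Galc (0.999), Lox (0.998) and Map4k4 (0.995). Among the members, r was 0.911 between Cd36 and Marco and -0.83 between Scarb1 and Lrp1. With Cxcl16 it was 0.838 for Cd36, 0.815 for Msr1 and 0.565 for Marco. In each group Cd36, Marco, Msr1 and Cxcl16 were all lower in code Z than in codes X and Y. The part of the codes in these r values was not tested.

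A further 21 scavenger receptor genes were examined, of which 10 reached the filter. In chronic hypoxia against standard oxygen 0 of these 10 passed in limma unblocked. An unadjusted p under 0.05 was reached unblocked by 3 of them, against 2533 of all 11067 genes tested. With the block 3 were higher and 0 lower, where 15.1% and 3.3% of all genes were. The median log2 fold change of the 10 was 0.30, against 0.16 over all genes. After rescaling 1 of the 3 remained called, Stab1. Stab1, the clearance receptor stabilin-1, had 30.6, 28.8 and 24.2 TPM in the standard group and 90.5, 100.5 and 37.5 TPM in the chronic group, in the order X, Y and Z. The chronic libraries lay above the standard oxygen libraries, with a difference of 1.31 ± 0.237 (log2, SE) and a limma adjusted p of 0.0279 blocked and 0.11 unblocked. Colec12, a collectin of class A, and Scarb2, a lysosomal class B protein, changed by 0.54 and 0.39 with the block (limma adjusted p-values of 0.0276 and 0.0274) and passed neither without it nor after rescaling. Against acute hypoxia 0 passed unblocked, with 4 at an unadjusted p under 0.05, against 2305 of all 11087 genes tested. With the block 2 were higher and 1 lower, where 12.1% and 3.42% of all genes were. The higher ones were Stab1 (1.13, limma adjusted p of 0.0108) and Colec12 (0.58, 0.0243). Colec12 lost its call after rescaling, with a limma adjusted p of 0.0579. The lower one was Lrp8, a receptor of the low-density lipoprotein receptor family, which went from 12.9, 13.8 and 13.7 TPM in the acute group to 4.88, 7.36 and 7.83 TPM in the chronic group (log2 fold change of -0.94, limma adjusted p of 0.0176). In acute hypoxia 0 of the 10 passed in either fit, with 1 at an unadjusted p under 0.05 unblocked and 3 blocked. Of all 10987 genes tested, 785 unblocked and 1555 blocked were under that p.

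Genes for ligands, chaperones, adaptors and proteases of the members formed a second list of 22, with 17 tested. In chronic hypoxia against standard oxygen 0 passed in limma unblocked. An unadjusted p under 0.05 was reached unblocked by 10 of the 17, against 2533 of all 11067 genes tested. The median log2 fold change of the 17 was 0.51, against 0.16 over all genes. With the block 7 were higher and 2 lower, where 15.1% and 3.3% of all genes were. After rescaling these counts were 2 and 2, where 613 and 657 of 11060 genes were called. C1qa, a chain of complement C1q, had 66.8, 71.9 and 1.44 TPM in the standard group and 281, 443 and 3.41 TPM in the chronic group, a log2 fold change of 1.84 (limma adjusted p of 0.0287 with the block). S100a8, a calcium-binding protein that is a ligand of Ager, had 912, 895 and 1593 TPM in the standard group and 274, 258 and 582 TPM in the chronic group. Its log2 fold change was -1.66, with a limma adjusted p of 0.00567 blocked and 0.073 unblocked. Tlr6, a co-receptor with Cd36, changed by 0.86 and Lpl, lipoprotein lipase, by -0.73 (limma adjusted p-values of 0.0122 and 0.0373 with the block). In chronic against acute hypoxia 0 passed unblocked, with 9 at an unadjusted p under 0.05, against 2305 of all 11087 genes tested. With the block 8 were higher and 1 was lower, where 12.1% and 3.42% of all genes were. After rescaling these counts were 5 and 3, where 524 and 559 of 11083 genes were called. Those with the largest differences were C1qa (1.99, limma adjusted p of 0.0157), S100a8 (-1.82, 0.003), C1qc (1.06, 0.0182) and C1qb (0.92, 0.0298, and 0.0546 after rescaling). In acute hypoxia against standard oxygen 0 passed in either fit, with 1 at an unadjusted p under 0.05 unblocked and 3 blocked. Of all 10987 genes tested, 785 unblocked and 1555 blocked were under that p.

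Regulators that sense lipid or set the macrophage lineage, with partner genes of lipid handling, formed another list of 17, with 16 tested. In chronic hypoxia against standard oxygen 0 were higher and 4 lower unblocked, where 2.69% of all genes were called. With the code block 1 was higher and 7 were lower, where 15.1% and 3.3% of all genes were. The median of the list was -0.34 against 0.16 over all genes. After rescaling the list counts were 0 and 5 unblocked and 1 and 8 blocked. Over all 11060 genes tested they were 115 and 119 unblocked and 613 and 657 blocked. Pparg, the fatty acid-sensing receptor known to drive Cd36, had 34.6, 33.9 and 33.8 TPM in the standard group, 12.8, 12.5 and 18.7 TPM in the acute group and 16.9, 12.2 and 13.6 TPM in the chronic group, in the order X, Y and Z. It fell in chronic hypoxia by 1.22 on the log2 scale (limma adjusted p of 0.0146 unblocked and 0.0092 blocked). In acute hypoxia its log2 fold change was -1.18, where the limma adjusted p was 0.0874 unblocked and 0.0514 blocked, while Cd36 differed by 0.10. Nr1h3, the oxysterol receptor LXR alpha known to drive Cd5l, had 15.5, 18.0 and 21.1 TPM in the standard group, 18.3, 19.1 and 20.8 TPM in the acute group and 8.39, 8.14 and 9.50 TPM in the chronic group. It fell by 0.98 (limma adjusted p of 0.0307 unblocked and 0.0113 blocked). Nr1h2, or LXR beta, did not fall, at 65.4 to 69.3 TPM in the standard group and 72.0 to 78.8 TPM in the chronic group. By sign, 5 of the 16 tested genes of the list were higher and 11 lower in chronic hypoxia against standard oxygen. The part of either receptor in the level of Cd5l was not tested.

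Fabp4, a fatty acid carrier whose gene is a known target of PPAR gamma, fell from 305, 319 and 250 TPM in the standard group to 86.0, 90.2 and 99.8 TPM in the chronic group. The difference was -1.65 ± 0.126 (log2, SE), at a limma adjusted p of 0.0077 unblocked and 0.00713 blocked. Cebpa, a myeloid transcription factor, fell by 0.65 on the log2 scale (limma adjusted p of 0.0391 unblocked and 0.0138 blocked). In acute hypoxia against standard oxygen 0 of this list passed unblocked and 1 passed blocked, where 0.0273% and 0.71% of all genes were called. Unblocked, 6 of the list had an unadjusted p under 0.05, against 785 of all 10987 genes tested. After rescaling, Pparg was lower unblocked (-1.20, limma adjusted p of 0.0434) and not blocked (0.0654). The gene that passed blocked was Abca1, a cholesterol exporter and known target of LXR, which had 24.5, 25.6 and 17.4 TPM in the standard group and 78.3, 76.6 and 47.8 TPM in the acute group (log2 fold change of 1.53, limma adjusted p of 0.00871 with the block). Abca1 was also higher in the chronic libraries, at 31.2 to 55.6 TPM, than in those of standard oxygen. Between chronic and acute hypoxia 0 were higher and 1 lower unblocked, Nr1h3 (-1.07, limma adjusted p of 0.0289), where 0.695% of all genes were called. With the block 1 was higher and 8 were lower, where 12.1% and 3.42% of all genes were. The median of the list was -0.51 against 0.14 over all genes. After rescaling the list counts were 0 and 2 unblocked and 1 and 9 blocked. Over all 11083 genes tested they were 33 and 48 unblocked and 524 and 559 blocked.

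**Figure D4:**
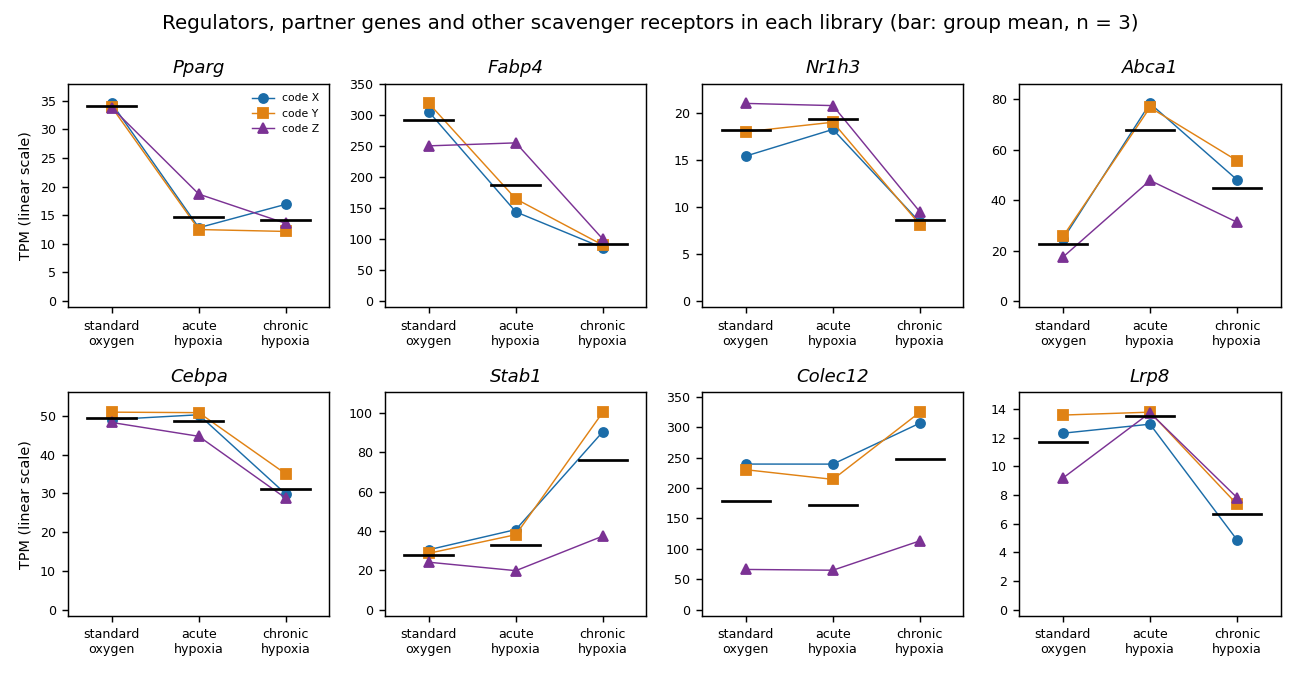
TPM on a linear scale in each of the 9 libraries for 8 genes of the related lists, by group, with points joined within a code and bars at the group means (n = 3). Pparg is at 33.8 to 34.6 TPM in the standard group and at 12.2 to 18.7 TPM in both hypoxia groups, and Nr1h3 is at 8.14 to 9.50 TPM in the chronic group and 15.5 to 21.1 TPM in the other groups.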

How the data were processed

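The values used were TPM per gene as deposited by the authors, in 3 tables that each hold the 6 libraries of a pair of groups, and each library had identical values in both tables that hold it. Per the submitters' processing notes, FastQC, STAR, featureCounts and the build GRCm38 were used. How the TPM were computed, tool versions and annotation are not given in the sources used here. Per the labels' protocols, libraries were Illumina TruSeq mRNA, read as paired ends of 75 bases. Symbols matched 34582 of 34866 identifiers, and 10724 to 11208 genes reached 1 TPM per library.

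Each comparison was fitted on its 6 libraries with limma 3.58.1 in R 4.3.3 (eBayes with trend, two-sided) on log2(TPM + 1), keeping genes whose TPM averaged at least 1, with Benjamini-Hochberg adjustment over all genes tested. Fold changes on this scale understate the change of low genes. The script was tested on simulated data with known fold changes, as a check of the code and not of the p-values given here. Deviations from group means correlated across 11065 genes at r of 0.378 to 0.633 in all 9 pairs of libraries that share a code. The codes were therefore used as a replicate block beside the fit without one. The members and lists were chosen with earlier results of these data known. All 10 members are named. From each related list the text names up to 4 changed genes with the largest log2 fold change, without a block or, where none changed, with the code block, together with Pparg and Nr1h3. Nr1h2 is also named, beside Nr1h3. The 3 genes most like each member of at least 10 TPM are also named. Alternatives were other pseudocounts, filters, blocks and scalings, and leaving out libraries.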

Additional observations from a re-analysis of the deposited data

How the results depend on the processing

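The numbers of members changed depended most on the replicate block and on code Z. In acute hypoxia against standard oxygen the count was 0 in all 17 alternatives. In chronic hypoxia against standard oxygen it was 2, and it became 5 with the code as a replicate block, 0 with the title number as a replicate block, 0 with no filter, 1 with rescaling, 4 with the code block and rescaling, 6 with the code block and all 9 libraries in 1 fit, 5 without the code Z libraries and 5 without them and with the code block (an alternative chosen after seeing the data). Leaving out 1 library gave 0 to 2. In chronic against acute hypoxia it was 0, and it became 6 with either replicate block, 1 with rescaling, 5 with the code block and rescaling, 5 with the code block and all 9 libraries, 5 without code Z with or without the block, and 0 to 2 on leaving out 1 library. In this comparison the code block and the title number block are the same fit, so they count as 1 setting. Pairs with the same title number correlated at r of -0.515 to 0.633, and number 1 marks code X in every group, while numbers 2 and 3 mark codes Z and Y in standard oxygen and codes Y and Z in the other groups.

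Over all alternatives the limma adjusted p in chronic hypoxia against standard oxygen ranged from 1.93e-05 to 0.356 for Marco, 0.000141 to 0.808 for Cd36, 0.00198 to 0.195 for Scarb1, 0.000551 to 0.187 for Lrp1 and 0.00873 to 0.232 for Cd5l, with the same direction wherever the gene was tested. Directions reversed only for values that had not passed unblocked. Msr1 became -0.0433 in chronic hypoxia against standard oxygen and -0.00271 against acute hypoxia after rescaling, with or without the code block. In acute hypoxia against standard oxygen Msr1 became 0.0702 without code Z, with or without the block. On leaving out 1 library, log2 fold changes in acute hypoxia against standard oxygen ranged from -0.346 to 0.517 for Cd36, -0.0957 to 0.143 for Msr1, -0.415 to 0.213 for Marco, -0.0765 to 0.0375 for Scarb1, -0.376 to 0.2 for Cd5l and -1.25 to 1.53 for Cxcl16. Those of Cxcl16 ranged from -0.984 to 1.84 in chronic hypoxia against standard oxygen and from -1.13 to 1.71 against acute hypoxia, where Msr1 ranged from -0.00417 to 0.234. The cause of these changes was not tested, except that leaving out 1 library unbalances the codes between groups. The count of all genes changed in chronic hypoxia against standard oxygen was 298, and it was 120 with no filter, 2039 with the code block, 1 with the title number, 1270 with the code block and rescaling, 2916 with the code block and all 9 libraries, 2300 without code Z, 3828 without it and with the block, and 1 to 522 on leaving out 1 library. In chronic against acute hypoxia 77 became 7, 1724, 1724, 1083, 2464, 1788 and 2751 in the same order, and leaving out 1 library moved it by over 1.5 times in both directions, with 1 as the lowest. In acute hypoxia against standard oxygen 3 became 78 with the code block, 21 with rescaling, 54 with both, 205 with the block and all 9 libraries, 319 and 327 without code Z unblocked and blocked, and 0 to 33 on leaving out 1 library. Depth is unknown, so no counting error could be given for the low members Olr1, Cd5l, Ager and Megf10.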
